A study of Mus musculus with 4 samples.

Results

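Ribosomal protein promoters were taken as the promoters of mouse protein-coding genes whose RefSeq symbol is Rpl or Rps followed by a digit, together with Rplp0, Rplp1, Rplp2 and Rpsa, leaving out the Rps6k kinase genes and every gene on chromosome 11. The rule found 84 genes of 20291 protein-coding genes outside chromosome 11, of which 40 encode large-subunit proteins, 30 encode small-subunit proteins and 14 are paralogs, retrogene-like copies or other genes that share the name. A further 7 genes of the same name lie on chromosome 11, which carries the engineered HoxB cluster, and were left out. A transcription start was listed for 65 of the 84 genes (29 large-subunit, 23 small-subunit and 13 others) in the RefSeq promoter table for GRCm38.p6, the assembly also called mm10. The comparison set was the 16156 other protein-coding genes outside chromosome 11 with a listed start. The rule itself uses no measured value, though the genes and lists were chosen with earlier results of these data known.

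The study mapped CTCF by CUT&RUN, in which an antibody directs micrococcal nuclease to a bound protein so that the released DNA can be sequenced, in mouse embryonic stem cells (mESC). There were 4 libraries, 1 for each genotype. All lines shared a HoxB Del chromosome opposite a chromosome with Del(i9-13) and an inserted array of CTCF binding sites, Ins(CBS5-10). The Ins library had the array as inserted. In the Del(CBS8-10) library the array carried that deletion as well. In the Inv library the array was inverted, Inv(CBS5-10), and the Inv:Del(CBS7-10) line added Del(CBS7-10) to that inverted array. Values given as 4 numbers follow this order: Ins first, then Del(CBS8-10), then Inv, and Inv:Del(CBS7-10) last. The labels do not say how many clones or cultures stand behind a genotype, and with 1 library each no difference between genotypes could be tested. CTCF peaks do not measure expression, so the labelled cell type was not checked by marker genes.

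The peak lists held 93969, 74555, 66365 and 99177 peaks. The commonest local background, recovered from the deposited fold and p-value of each peak, was 0.858, 0.553, 0.19 and 1.33 fragments per base in the same order, and the median pileup at a summit was 26, 17, 14 and 35 fragments. Longer lists had higher backgrounds, so a value is read here within its own list, by its percentile there. How deeply each library was sequenced is unknown, as the files hold no read totals. Each interval given is a 95% Wilson interval, which covers counting error alone.

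CTCF is a DNA-binding protein with a row of zinc fingers that recognises a long motif and halts the loop-extruding cohesin complex, and many of its sites lie close to promoters. Ribosomal protein genes encode the protein part of the large and small ribosomal subunits. They are transcribed at high and matched rates in growing cells, usually from a start inside a pyrimidine tract, and factors of the ETS family, YY1 and Sp proteins are among those known to act at their promoters.

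The sequences shown as examples are the stretches before the starts of 6 subunit genes, given 5′ to 3′ along the gene on GRCm38.p6 from RefSeq. The first 4 belong to genes with a strong CTCF summit and a match to the 12-letter CTCF core consensus, searched on both strands with at most 2 letters off. Rpl36a is shown because its summit was as strong and no such match lay in its window, and Rps4x because its match was exact and its summit weak. Capitals mark the core match. They are Rplp0 at chr5:115559217-115559466 (plus strand), Rpl37 at chr15:5116482-5116511 (plus), Rpl5 at chr5:107900278-107900507 (plus), Rpl11 at chr4:136053394-136053643 (minus), Rpl36a at chrX:134585404-134585653 (plus) and Rps4x at chrX:102189392-102189641 (minus). For Rpl37 only 30 bases are given, since its core lies inside the annotated span of the neighbouring gene Card6, and the other 5 stretches lie in no annotated gene.
Rplp0: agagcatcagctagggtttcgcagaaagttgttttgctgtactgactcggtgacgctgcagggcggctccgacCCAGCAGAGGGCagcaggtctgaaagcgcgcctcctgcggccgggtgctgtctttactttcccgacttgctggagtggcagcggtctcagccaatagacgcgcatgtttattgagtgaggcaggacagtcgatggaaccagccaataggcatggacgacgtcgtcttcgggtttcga
Rpl37: gccaggcacGCCCCCTACCGGtgttgcagc
Rpl5: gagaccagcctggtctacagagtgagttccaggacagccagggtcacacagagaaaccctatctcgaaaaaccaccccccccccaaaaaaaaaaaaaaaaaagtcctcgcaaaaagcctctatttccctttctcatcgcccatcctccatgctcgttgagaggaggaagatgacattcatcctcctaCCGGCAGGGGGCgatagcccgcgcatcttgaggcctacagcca
Rpl11: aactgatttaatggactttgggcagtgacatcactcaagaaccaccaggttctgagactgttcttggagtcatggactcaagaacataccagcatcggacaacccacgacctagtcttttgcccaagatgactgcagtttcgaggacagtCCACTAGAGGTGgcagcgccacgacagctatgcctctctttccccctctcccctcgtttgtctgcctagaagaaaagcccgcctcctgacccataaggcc
Rpl36a: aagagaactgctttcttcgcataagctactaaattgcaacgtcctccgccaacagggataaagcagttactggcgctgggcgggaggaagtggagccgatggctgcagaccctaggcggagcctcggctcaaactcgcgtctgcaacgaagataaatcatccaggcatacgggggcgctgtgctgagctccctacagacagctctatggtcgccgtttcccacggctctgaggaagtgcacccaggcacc
Rps4x: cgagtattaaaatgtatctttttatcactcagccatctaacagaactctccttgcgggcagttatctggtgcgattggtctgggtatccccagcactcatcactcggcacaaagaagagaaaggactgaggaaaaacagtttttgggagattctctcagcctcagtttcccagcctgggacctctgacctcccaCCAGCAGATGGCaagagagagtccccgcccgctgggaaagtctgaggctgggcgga

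CTCF summits lay within 1 kb of a ribosomal protein start more often than at other protein-coding promoters in each of the 4 lists. In the Ins library 37 of 65 ribosomal protein promoters (56.9%, interval 44.8 to 68.2) held a summit, against 37.8% of the other promoters. The Del(CBS8-10) list had one at 29 (44.6%, 33.2 to 56.7), against 25.5%. The Inv library had 30 (46.2%, 34.6 to 58.1) against 28.9%, and the Inv:Del(CBS7-10) library 40 (61.5%, 49.4 to 72.4) against 35.3%. The intervals of the ribosomal protein genes lay above the share of the other promoters in all 4 libraries, which share most of their genotype and are not independent draws of the genes.

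The same genes recurred from list to list. A summit stood in all 4 lists at 22 of the 65 promoters (33.8%, 23.5 to 46.0), against 19.4% of other promoters, and in at least 1 list at 47 (72.3%, 60.4 to 81.7), against 45.1%. By subunit, 11 of 29 large-subunit genes and 6 of 23 small-subunit genes had a summit in all 4 lists. The other 5 of the 22 were the paralogs Rpl7l1, Rpl22l1 and Rps27l, together with Rps19bp1 and Rps23rg1, which share the name. Of the 47 member summits of the Ins list, counting every summit within 1 kb, 41 (87.2%, 74.8 to 94.0) had a summit within 100 bp in the Inv:Del(CBS7-10) list, 28 (59.6%) in the Del(CBS8-10) list and 27 (57.4%) in the Inv list. At other promoters these shares were 70.1%, 52.7% and 54.2%.

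The gap to other promoters was wider among genes whose promoter is not CpG-rich. A promoter was called CpG-rich where its 300 bases (250 before the start, 50 after) had at least 55% GC and an observed over expected CpG ratio of at least 0.6. This held for 38 of 65 ribosomal protein promoters (58.5%) and 43.4% of the others. Among CpG-rich promoters the shares with a summit were close in the Ins library, at 57.9% (42.2 to 72.1) of ribosomal protein genes and 57.0% of others. They were 47.4% against 37.8% with Del(CBS8-10), 50.0% against 44.3% with Inv and 60.5% against 52.1% with Inv:Del(CBS7-10), and each interval of the ribosomal protein genes took in the share of the others. Among the 27 ribosomal protein promoters that were not CpG-rich, 55.6% (37.3 to 72.4) held a summit in the Ins library, against 23.0% of the 9150 others. The share was 40.7% (24.5 to 59.3) in both the Del(CBS8-10) and the Inv library, against 16.2% and 17.1%, and 63.0% (44.2 to 78.5) in the Inv:Del(CBS7-10) library, against 22.4%. In all 4 lists together, a summit stood at 14 of the 38 CpG-rich (36.8%) and 8 of the 27 remaining (29.6%) ribosomal protein promoters, against 29.2% and 11.9% of the others. The difference between the classes was not tested.

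**Figure D1:**
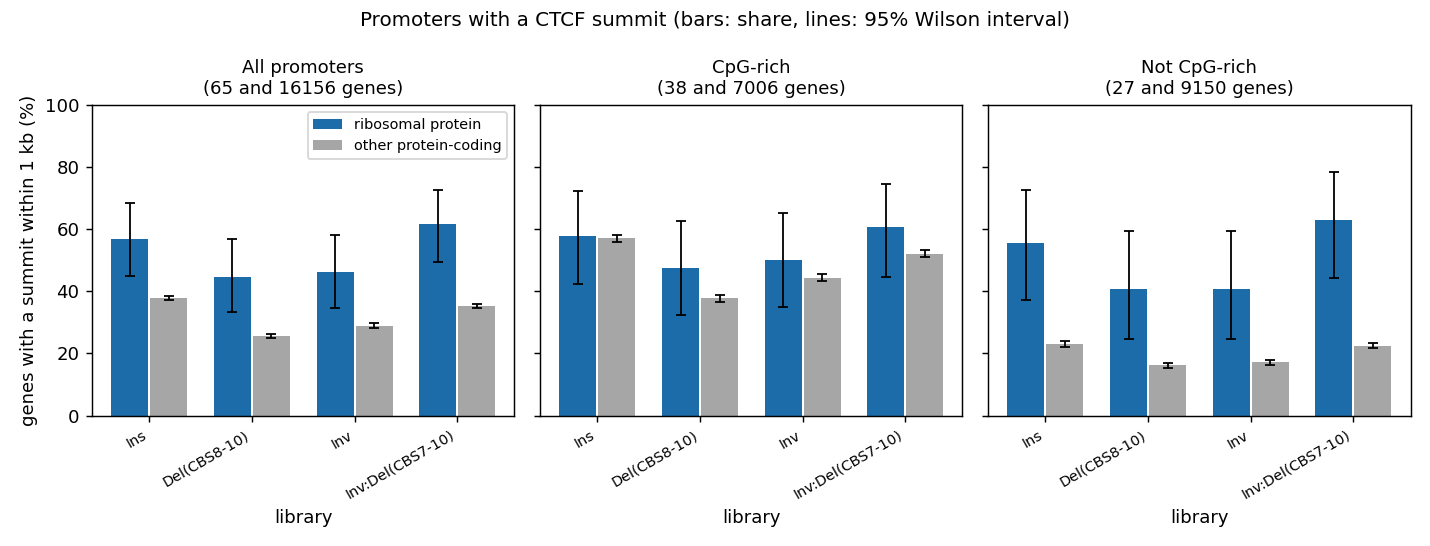
Share of genes with a CTCF summit within 1 kb of the start (vertical axis, percent) in each library, for ribosomal protein genes (blue) and other protein-coding genes (grey), with 95% Wilson intervals as lines. The panels hold all, CpG-rich and not CpG-rich promoters. Blue and grey are close among CpG-rich promoters in the Ins library (57.9% and 57.0%) and apart among promoters that are not CpG-rich (55.6% and 23.0%).

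Where a ribosomal protein promoter held a summit, its strength was ordinary by score and by rank. The median −log10 q of the strongest summit per gene was 14.4, 9.74, 8.83 and 16.0, against 13.8, 9.11, 9.63 and 18.4 at other promoters. Ranked within its own list, the median member summit stood at percentile 44.9, 43.7, 37.1 and 41.3, against 44.2, 41.5, 41.3 and 44.4. The median fold over background was 6.89, 6.62, 7.11 and 6.74, against 7.69, 6.82, 7.57 and 8.33, lower in all 4 lists. The median local background was 1.9, 1.4, 0.72 and 2.6, against 1.78, 1.18, 0.52 and 2.18, higher in all 4 lists. These differences were not tested. Summits with a −log10 q of at least 50 stood at 5 (7.69%), 1 (1.54%), 3 (4.62%) and 9 (13.8%) of the 65 promoters, against 6.67%, 1.72%, 1.94% and 8.91% of the others. With each list limited to its 20000 strongest peaks, 4, 5, 6 and 5 members had a summit (6.15%, 7.69%, 9.23% and 7.69%), against 5.63%, 5.01%, 5.99% and 4.23% of the others. The ratio of the shares was 1.09, 1.53, 1.54 and 1.82 there and 1.51, 1.75, 1.60 and 1.75 over the whole lists, so it was lower among the strongest peaks in Ins and differed little in the other libraries. With 4 to 6 genes per list these ratios are loose. By subunit, the median −log10 q was 16.9, 15.2, 14.5 and 16.7 at large-subunit genes and 8.57, 6.77, 5.65 and 12.2 at small-subunit genes, lower in the small subunit in all 4 lists. Those medians rest on 15 to 21 and on 8 to 13 genes.

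**Figure D2:**
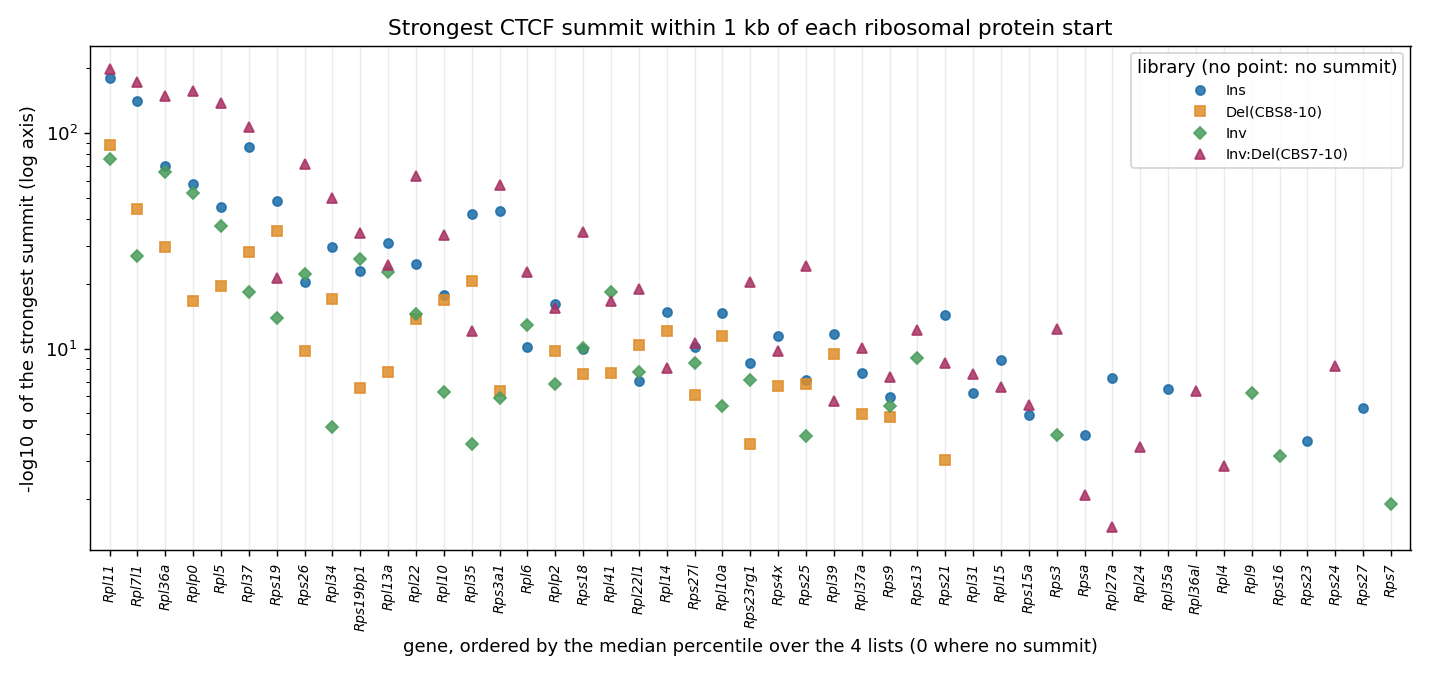
The −log10 q (vertical, log axis) of the strongest CTCF summit within 1 kb of the start for the 47 ribosomal protein genes with a summit in any list, 1 point per library, ordered by median percentile. Rpl11 leads with 75.4 to 198 and most genes lie between 3 and 30. The whole Inv:Del(CBS7-10) list has the highest median −log10 q (24.1), so heights are not compared between libraries.

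The 10 genes given next in full have the highest median percentile of −log10 q over the 4 lists, counting a list without a summit as 0. By percentile, 3 of them stood highest in the Ins list, 1 in Del(CBS8-10), 3 in Inv and 3 in Inv:Del(CBS7-10), so no library led throughout. Rpl11 encodes a large-subunit protein that joins 5S rRNA and Rpl5 in a small particle, and the free particle binds Mdm2. Its summit had a −log10 q of 181, 88.3, 75.4 and 198. The fold over background was 20.2, 19.1, 21.4 and 21.2, and the summit lay 85, 69, 78 and 73 bp upstream of the start. The fold was nearly level over the 4 libraries while the score moved with the pileup, which was 195, 94, 73 and 208 fragments. At percentile 99.1, 99.0, 97.7 and 92.1 it was among the strong peaks of each list. Rpl5, its partner in the particle, had values of 45.4, 19.4, 37.2 and 138 at folds of 15.2, 11.5, 17.5 and 22.3. Its summits lay 37, 45, 12 and 37 bp upstream, and its percentile of 71.4, 64.0, 84.0 and 84.3 was lowest in Del(CBS8-10).

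Rplp0 encodes the base of the ribosomal stalk, where translation factors dock. Its −log10 q was 58.0, 16.6, 52.4 and 157 in the 4 libraries, with folds of 10.5, 6.64, 13.8 and 13.2. The summits lay between 134 and 162 bp upstream, and the percentile was 77.6, 59.2, 92.3 and 87.0, lowest in Del(CBS8-10). Rpl36a, an X-linked gene for a large-subunit protein near the tRNA exit site, had values of 70.6, 29.5, 65.8 and 149 and folds of 22.0, 15.6, 22.7 and 25.2. Its summits fell within 52 to 67 bp upstream in all lists, at percentile 82.9, 77.1, 96.2 and 85.9. Rpl37, a large-subunit gene, had values of 86.0, 28.1, 18.2 and 107 at folds of 18.1, 11.4, 11.6 and 20.8. Its percentile was 88.3, 75.5, 62.5 and 78.8, lowest in Inv, and its summits were spread from 108 to 173 bp upstream. Rpl34, another large-subunit gene, had values of 29.7, 16.9, 4.32 and 49.8. In 3 libraries that summit lay 808 to 837 bp downstream of the start, inside the gene, and in the Inv library the strongest summit was a weak one 125 bp upstream.

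Among the small-subunit genes, Rps19, a gene often mutated in Diamond-Blackfan anaemia, had values of 48.4, 35.0, 13.8 and 21.3, with summits 471 to 549 bp upstream. Its percentile was 72.9 and 82.6 in the Ins and Del(CBS8-10) lists against 53.5 and 47.4 in the others, and it was the one gene of the 10 that ranked highest in Del(CBS8-10). Rps26, whose protein lines the mRNA exit channel, had values of 20.3, 9.71, 22.2 and 71.8 at 343 to 372 bp upstream. Of the paralogs and other genes, Rpl7l1, a paralog of Rpl7 with a part in ribosome assembly, had 141, 44.3, 27.0 and 172, at 539 to 552 bp upstream and at percentile 97.5, 89.4, 74.9 and 89.1, lowest in Inv. Rps19bp1, which encodes a nucleolar protein that binds Rps19, had 22.8, 6.55, 25.9 and 34.5 at 88 to 110 bp upstream, with its lowest percentile, 30.8, in Del(CBS8-10).

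The other 12 genes with a summit in all 4 lists had lower median percentiles, though some single scores were as high as those above. Rpl13a, a large-subunit gene that hosts small nucleolar RNAs, had a −log10 q of 30.8, 7.76, 22.8 and 24.5, and Rpl22 had 24.6, 13.7, 14.4 and 63.2 with its summits 43 to 55 bp downstream of the start. The paralog of Rpl22, Rpl22l1, also kept a summit in every list, at 7.07, 10.4, 7.78 and 18.9. Rplp2, an acidic stalk protein gene, had 16.1, 9.74, 6.84 and 15.4 between 356 and 386 bp upstream. Rpl35 had 42.1, 20.5 and 12.1 at 693 to 713 bp upstream in the lists other than Inv, and only 3.60, at 132 bp, in the Inv list. Rps3a1 had 43.6 and 57.5 in the Ins and Inv:Del(CBS7-10) lists and 6.35 and 5.89 in the Del(CBS8-10) and Inv lists. The remaining 6 were Rpl10, Rps18, Rps27l, Rps23rg1, Rps25 and Rps9, and Rps9, at 4.80 to 7.41, had the lowest maximum of the 22.

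Summits in 3, 2 and 1 of the lists stood at 8 (12.3%), 7 (10.8%) and 10 (15.4%) of the 65 genes, against 8.49%, 7.17% and 10.1% of other promoters. In the first of these groups, Rpl14, Rpl37a, Rpl39, Rps4x and Rps21 had none in the Inv list, the shortest of the 4, Rpl6 none in Del(CBS8-10), Rpl41 none in Ins and Rpl10a none in Inv:Del(CBS7-10). Of these, Rpl6 reached 22.6 and Rpl41, which encodes the smallest ribosomal protein, 18.2. Summits in 2 lists stood at Rpl31, Rpl15, Rps15a, Rpsa and Rpl27a (Ins and Inv:Del(CBS7-10), the longest lists) and at Rps13 and Rps3 (Inv and Inv:Del(CBS7-10)). Single lists held a summit at 10 genes: Rpl24, Rpl36al, Rpl4 and Rps24 in Inv:Del(CBS7-10), Rpl35a, Rps23 and Rps27 in Ins, and Rpl9, Rps16 and Rps7 in Inv. The values at these 10 were low, from 1.91 at Rps7 to 8.27 at Rps24. The 8 genes missing from 1 list had values of 3.05 to 22.6 in the others, and no absence was read as a loss of CTCF.

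No list held a summit within 1 kb at 18 of the 65 promoters (27.7%, 18.3 to 39.6), against 54.9% of other promoters. They were 5 large-subunit genes (Rpl7a, Rpl12, Rpl13, Rpl18 and Rpl28), 6 small-subunit genes (Rps2, Rps6, Rps10, Rps12, Rps15 and Rps28) and 7 of the 13 others (Rpl3l, Rpl10l, Rpl31-ps12, Rpl32l, Rpl37rt, Rpl39l and Rps27rt). Rps6 is the subunit protein phosphorylated by S6 kinase. Rpl3l and Rpl10l are paralogs known for use in striated muscle and in testis. Just inside the limit of 1 kb, the nearest summit in any list lay 662 bp from the start at Rpl14, 594 bp at Rpl9 and 356 bp at Rplp2. Just outside, it lay 1221 bp away at Rpl7a, 1770 bp at Rpl3l and 1908 bp at Rpl13. Within single lists a gene could lie nearer the limit, as Rpl34 did in Del(CBS8-10), where its one summit was 809 bp from the start.

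The strongest summits of ribosomal protein promoters lay mostly upstream of the listed start. In the Ins library 35 of 37 (94.6%, 82.3 to 98.5) were upstream, against 77.1% at other promoters. The other libraries had 26 of 29 (89.7%, 73.6 to 96.4) against 76.9%, 27 of 30 (90.0%, 74.4 to 96.5) against 76.7%, and 37 of 40 (92.5%, 80.1 to 97.4) against 77.2%, in the same order. The share of the others lay under the interval in Ins and Inv:Del(CBS7-10) and inside it in the other pair of libraries. The median place was 114, 128, 102 and 83 bp upstream of the start in the 4 libraries, against 87, 99.5, 85 and 92 bp for other promoters, whose medians fell within the members' intervals. Within each CpG class the upstream share of the others fell inside the members' interval in all 4 libraries, as among CpG-rich promoters in Ins (95.5%, 78.2 to 99.2, against 80.1%). Genes of translation factors had upstream shares of 86.2%, 88.9%, 92.0% and 86.2%, so the lean is not shown to be particular to ribosomal protein genes. Rpl22, Rpl34 and, in single lists, Rpl10a, Rpl24, Rps3 and Rps9 were the genes with a strongest summit downstream. By annotation, 28 of 37, 22 of 29, 19 of 30 and 31 of 40 strongest summits lay in no gene, 4 to 6 per list lay in the ribosomal protein gene itself, and 3 to 5 in another gene, such as Card6 before Rpl37, Vps52 before Rps18 and Pidd1 before Rplp2. These counts were not made for other promoters, so they are not shown to be particular to ribosomal protein genes. At Rps27l, Rps9 and, in the Inv list, Rpl5, a summit upstream of the listed start lay inside the annotated gene. The upstream shares therefore hold for listed starts, not for annotated gene ends.

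**Figure D3:**
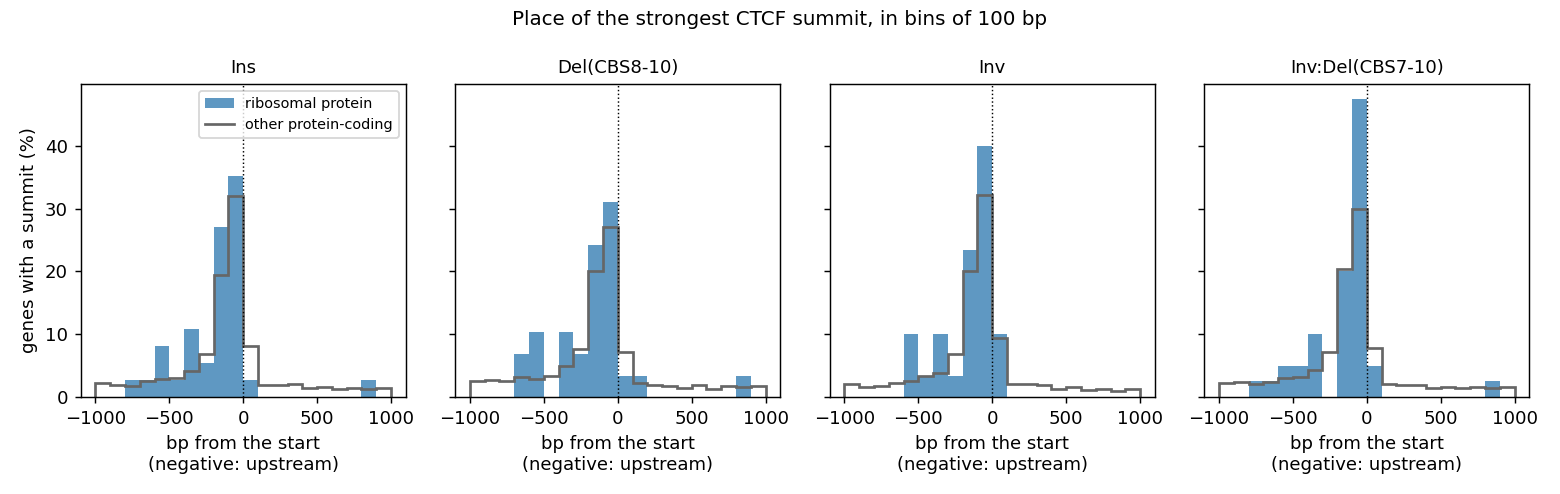
Place of the strongest CTCF summit relative to the transcription start (horizontal, bp, negative upstream) as a percent of genes with a summit per bin of 100 bp, for ribosomal protein genes (filled blue) and other protein-coding genes (grey line), 1 panel per library. The bin just before the start is the fullest in every panel, and past the start the blue bins are few: 2 of 37 genes in the Ins library.

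Matches to the CTCF core stood before ribosomal protein starts at shares near those elsewhere, and among CpG-rich promoters at lower ones. In the 300 bases around the start, 21 of 65 genes (32.3%) had a match with at most 2 letters off, against 34.5% of other promoters, and 4 (6.15%) a match with at most 1 off, against 5.22%. An exact match was found at 2 genes, Rplp0 and Rps4x (3.08% against 0.60%). The inner part of the motif alone, AGGGGGC or AGGTGGC on either strand, which overlaps the core, stood at 18.5% of ribosomal protein and 20.1% of other promoters. Among CpG-rich promoters the core with at most 2 letters off stood at 31.6% against 43.2%, and the inner part at 15.8% against 29.6%. A match is a description of the letters, not a measured site.

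Of the 21 genes with a match at most 2 letters off, 14, 11, 11 and 13 had a summit in the 4 lists, and at 10, 9, 9 and 9 of these the strongest summit lay within 100 bp of the centre of the match. The farthest was 1074 bp away, at Rpl34 in Ins. Other promoters with such a match numbered 5575, of which 2855, 3657, 3455 and 3026 had no summit. Of the 21 genes, 7, 10, 10 and 8 had none. Distances to the match were not counted for other promoters. The match was sought only in the 300 bases around the start, and the median summit of other promoters lay 85 to 99.5 bp upstream. Whether summits lay closer to matches than their place near the start alone would give was not tested. Rpl3l, Rpl12, Rpl32l, Rps10 and Rps15 had a match and no summit in any list. The genes given next were chosen for a strong summit or a close match. At Rplp0 the exact match at 177 to 166 bp upstream, printed in capitals above, had its centre 37, 31, 9 and 24 bp from the summits of the 4 lists. At Rpl5 the match 1 letter off, 63 to 52 bp upstream, lay 20, 12, 45 and 20 bp from the summits, and at Rpl37 the match 1 off on the reverse strand, 122 to 111 bp upstream, lay 57, 12, 8 and 31 bp away. At Rpl11, the gene with the highest scores, the best match was 2 letters off, 100 to 89 bp upstream, and 9, 25, 16 and 21 bp from the summits. The exact match of Rps4x, an X-linked small-subunit gene, lay 56 to 45 bp upstream, yet its summits had a −log10 q of only 11.5, 6.68 and 9.74, with none in the Inv list. Those summits lay 36, 43 and 37 bp from the centre of the match. Rpl36a, with values of 70.6, 29.5, 65.8 and 149, had no match within 2 letters in its 300 bases. A close match to this 12-letter core and a strong summit thus did not always go together. The rest of the longer CTCF motif was not searched, so Rpl36a is not shown to lack a CTCF motif. At other promoters of the Ins library, the share with a match at most 1 letter off was 2.58% without a summit and 23.4% at a −log10 q of 50 or more. Of the 5 ribosomal protein promoters in that upper class, 2 had such a match, and of the 28 without a summit none had one.

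**Figure D4:**
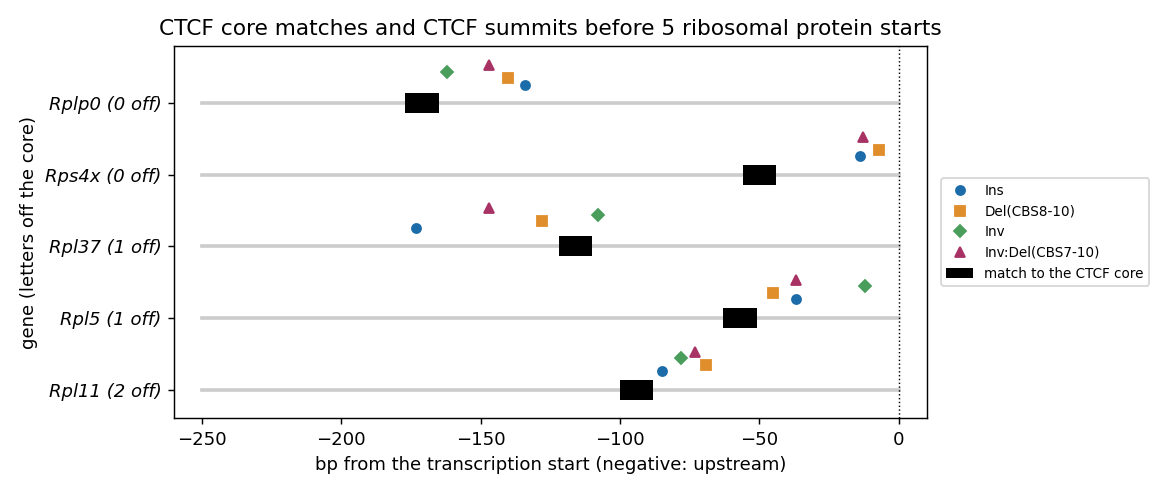
Place of the best CTCF core match (black bar) and of the strongest CTCF summit in each library (coloured points) along the 250 bp before the start of 5 ribosomal protein genes (horizontal, bp from the start), with the letters by which the match differs from the core. Summits lie 8 to 57 bp from the centre of the match, and Rps4x has no point for the Inv library.

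Of the other motifs searched, the ETS motif differed most in share from other promoters. The ETS motif CCGGAAG, searched on both strands, stood at 23 of 65 (35.4%) against 12.8% of other promoters, and among CpG-rich promoters at 42.1% against 20.9%. The YY1 motif AAGATGGC stood at 6 (9.23%) against 3.45%, and among CpG-rich promoters at 7.89% against 5.21%. The Sp/Klf motif GGGCGG stood at 56.9% against 48.8%, but among CpG-rich promoters at 73.7% against 81.9%. TATAAA was found at 13.8% against 14.8%, but among CpG-rich promoters at 15.8% (6 genes) against 6.39%. Whether they go with CTCF summits was not tested.

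Divergent gene pairs showed the opposite order in ribosomal protein and other genes. A divergent start of another gene, upstream within 1 kb and on the other strand, was listed for 12 of 65 ribosomal protein genes (18.5%) and 12.9% of the others. A summit stood at 5, 3, 4 and 4 of these 12 (41.7%, 25.0%, 33.3% and 33.3%), against 62.0%, 41.6%, 49.8% and 58.4% of other divergent promoters. At the 53 ribosomal protein genes without such a neighbour the shares were 60.4%, 49.1%, 49.1% and 67.9%, against 34.2%, 23.1%, 25.8% and 31.8%. The 53 include Rps10 and Rps13, where a start on the other strand lay at 0 and 21 bp, not upstream. With 12 genes the intervals are wide (19.3 to 68.0 in Ins), the difference in order was not tested, and the promoter table does not list every start. The pairs without a summit in any list were Rpl12 with Lrsam1, Rpl18 with Sphk2, Rpl7a with Med22, Rps2 with Snhg9 and Rps28 with Ndufa7. A small nucleolar RNA lay within 19 of the 65 genes (29.2%), against 1.62% of other genes, and 10, 7, 10 and 13 of these hosts had a summit (52.6%, 36.8%, 52.6% and 68.4%), against 39.7%, 26.7%, 30.9% and 36.3% of other host genes. Of the 46 ribosomal protein genes that are no hosts, 27, 22, 20 and 27 had one (58.7%, 47.8%, 43.5% and 58.7%), against 37.7%, 25.5%, 28.9% and 35.2% of other genes.

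Genes with high scores in 1 list mostly had high scores in the others, least so for Del(CBS8-10) with Inv. Over the genes with a summit in both lists, Spearman's rho of −log10 q was 0.77 for Ins with Del(CBS8-10) (28 genes), 0.61 for Ins with Inv (24), 0.79 for Ins with Inv:Del(CBS7-10) (33), 0.38 for Del(CBS8-10) with Inv (24), 0.60 for Del(CBS8-10) with Inv:Del(CBS7-10) (28) and 0.69 for Inv with Inv:Del(CBS7-10) (26). At other promoters the values were 0.83, 0.72, 0.81, 0.70, 0.78 and 0.76 in the same order, higher in every pair. These differences were not tested. All are correlations across genes, which share their libraries and are no replicates.

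The 19 genes without a listed start could be placed only by their annotated ends, since the tables give them no strand. Among them are Rpl3, Rpl7, Rpl8, Rpl17, Rpl21, Rpl29, Rpl30, Rpl32, Rpl34-ps1, Rpl36, Rplp1, Rps14, Rps20 and Rps29. A summit within 1 kb of either end stood at 13, 11, 13 and 14 of the 19 (68.4%, 57.9%, 68.4% and 73.7%). By the same measure the shares were 69.2%, 50.8%, 52.3% and 69.2% of the 65 genes with a start and 40.7%, 29.4%, 31.9% and 39.0% of other protein-coding genes. At the 65 genes, pooled over the 4 lists, 131 of 188 ends with a summit (69.7%) were the 5′ end. An end counts there once for each list that holds a summit near it. Rps29, a small-subunit gene on chromosome 12, had a −log10 q near its upper end of 147, 79.2, 50.4 and 331, the last above every value at a listed start. Rpl32, a large-subunit gene on chromosome 6, had 91.4, 17.5, 7.79 and 43.1 near its upper end. Rps14, a small-subunit gene, had 66.8, 31.7, 14.6 and 99.7 near its lower end. No list held a summit near Rpl8, Rpl17, Rpl30, Rplp1 or Rps20.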

How the data were processed

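CTCF CUT&RUN was measured in 4 libraries, 1 per genotype. Per the submitters' processing notes MACS2 2.2.7.1, mm10, Bowtie2 2.4.5, cutadapt 4.1, bedtools 2.30.0 and Picard were used. Their settings are not given here. Each deposited peak list gives the authors' score, the fold over background, the −log10 p-value and −log10 q-value, and the offset of the summit from the peak start. The lowest deposited −log10 q was 1.30.

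Summits were counted within 1 kb of any start in the RefSeq promoter table (GRCm38.p6), which lists starts for 65 of the 84 genes. The strongest summit of a gene was measured from its nearest start. Pileup and background were recovered from the deposited fold and p-value for at least 99.98% of the peaks of each list. Work was done in Python 3.11.15 with NumPy 2.4.6, pandas 2.3.3, SciPy 1.17.1 and Matplotlib 3.10.9, and the steps were tested on simulated data. Values in every library are given for the 10 genes with the highest median percentile of −log10 q, and for further genes by their list membership, of which those given values were picked after these were seen. The genes and lists were chosen with earlier results of these data known. No test was made, as there are no replicates. Alternatives changed the distance, peak threshold, list length, peak interval, gene set, starts and promoter class. Chromosome 11 was left out, since the lines are engineered there and the deposited lists name an extra HoxB-deleted copy of it. Values of some genes are not reported here.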

Additional observations from a re-analysis of the deposited data

How the results depend on the processing

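Of 156 values recomputed under other settings, 125 moved by less than their counting interval or under 1.5 times, 31 moved further and 0 reversed. Counts and percentiles cannot change sign, and the shortened Inv list is its whole list outside chromosome 11. Part of this tally was therefore fixed beforehand. The difference in share from other promoters was above 0 in all 36 recomputations, which reuse the same genes and lists and are not separate checks. Values given as 4 numbers run from Ins to Inv:Del(CBS7-10), as in the report. With a −log10 q of at least 10, 23, 14, 14 and 26 ribosomal protein promoters held a summit, at a median percentile of 57.0, 61.9, 69.2 and 53.6. In all 4 lists 8 did. Of the 16156 other promoters, 3736, 1917, 2288 and 3870 held one at that cut. The differences in share were 12.3, 9.67, 7.38 and 16.0 percentage points, against 19.2, 19.1, 17.2 and 26.3 over the whole lists. With all lists shortened to 58205 peaks, 26, 28, 30 and 24 promoters held a summit, at percentile 54.1, 44.5, 37.1 and 57.0. Of the 16156 other promoters, 4112, 3612, 4674 and 3603 held one there, with differences of 14.5, 20.7, 17.2 and 14.6 points. Over the whole lists the counts of ribosomal protein promoters were 37, 29, 30 and 40, so the order of the libraries changed with list length. With the 20000 strongest peaks, 4, 5, 6 and 5 promoters held a summit and 3 did in all 4 lists, with differences of 0.521, 2.68, 3.25 and 3.46 percentage points and percentiles of 92.9, 82.6, 88.1 and 87.0. These settings take in fewer and stronger peaks by construction. Among CpG-rich promoters alone, chosen after seeing the data, 22, 18, 19 and 23 of 38 genes held a summit and 14 did in all 4 lists, and the difference fell to 0.929 points in Ins and 8.47 in Inv:Del(CBS7-10). The use of 1 start per gene and of either gene end was also added after seeing the data. No paired analysis was possible because each genotype has 1 library without a replicate number, and for the same reason no replicate could be left out.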

Other observations

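Pseudogenes of ribosomal proteins held few CTCF summits. Of 299 such pseudogenes outside chromosome 11, 29 (9.70%, Wilson interval 6.84 to 13.6), 19 (6.35%), 17 (5.69%) and 31 (10.4%) had a summit within 1 kb of either end in the 4 lists, from Ins to Inv:Del(CBS7-10). The shares among 9710 other pseudogenes were 9.36%, 7.53%, 6.29% and 9.62%, each within the interval of the ribosomal protein copies.

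Other housekeeping gene lists had summits at shares near those of the ribosomal protein genes. A summit stood in all 4 lists at 19 of 59 mitochondrial ribosomal protein genes (32.2%), at 12 of 27 proteasome subunit genes (44.4%) and at 15 of 50 translation factor genes (30.0%), against 33.8% of ribosomal protein genes and 19.4% of all other promoters. Among 10 genes, some of them translation factors too, whose messenger is known to start with a pyrimidine tract, 2 had a summit in all 4 lists and 4 had none. Differences between these lists were not tested.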
